A study of Homo sapiens with 43 samples.

Results

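The genes described here are the protein-coding genes whose symbols start with SRSF or HNRNP. The hg38 gene table held 38 of them among 20033 protein-coding genes, 12 SRSF genes and 26 HNRNP genes. They were followed through 33 ChIP-seq peak lists from SUDHL5 and KARPAS422, human cell lines of diffuse large B-cell lymphoma. CDK-TCIP1 is a bivalent compound that binds the kinase CDK9 at one end and the repressor BCL6 at the other, so the study asked where CDK9 and the polymerase it acts on were found after treatment. Every treated sample received 30 nM CDK-TCIP1, and every sample, treated or control, was held at 0.1% DMSO. At 2 h, CDK9 was profiled in SUDHL5 by 2 antibodies, ab239364 and CST2316S, and in KARPAS422 by CST2316S alone, and each of these 3 sets has 2 CDK-TCIP1 lists and 2 DMSO lists. RNA polymerase II phosphorylated at Ser5 (Ser5P, 2 lists a group) or Ser2 (Ser2P, 2 lists a group) of its C-terminal repeats, and polymerase seen by 8WG16 (Pol II, 3 lists a group), were profiled in SUDHL5 after CDK-TCIP1 for 2 h, CDK-TCIP1 for 4 h and DMSO for 4 h. The 2 h and 4 h treatments therefore share their DMSO lists, and the 2 h lists differ from them also in time. Nothing in the labels says that replicates came from separate cultures, so the p-values below measure the spread between lists, which may be technical.

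SR proteins carry RNA-recognition motifs and a domain rich in arginine and serine, bind splicing enhancers in exons and help the spliceosome to choose splice sites. Heterogeneous nuclear ribonucleoproteins coat nascent transcripts and often act against SR proteins at the same exons. Most members of both families are expressed at high levels in dividing cells, and many limit their own mRNA through exons whose inclusion leads to decay. CDK9, with cyclin T in P-TEFb, phosphorylates polymerase and its pausing factors near the start of genes. Ser5P is typically found near gene starts, and Ser2P accumulates over the gene towards its end.

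The promoters of the members that the results turn on are printed here, as the 250 bases before the annotated start, on the strand of the gene, from RefSeq GRCh38.p14. HNRNPD, HNRNPR and HNRNPH2 are shown because CDK9 peaks were found there only in treated lists with CST2316S in SUDHL5, and SRSF11 because the same held with ab239364. SRSF1, HNRNPA2B1 and SRSF10 had a CDK9 peak in every list, and SRSF12 and HNRNPCL1 had no peak of any kind. Capitals mark exact matches, on either strand, to the TATA box (TATAAA), the NF-Y motif (CCAAT), the Sp1 core (GGGCGG), the ETS core (CGGAAG), the YY1 core (ATGGCGG), the CREB/ATF core (TGACGT), the NRF1 motif (CGCATGCG) or a BCL6 motif (TTCCTAGAA).
HNRNPD: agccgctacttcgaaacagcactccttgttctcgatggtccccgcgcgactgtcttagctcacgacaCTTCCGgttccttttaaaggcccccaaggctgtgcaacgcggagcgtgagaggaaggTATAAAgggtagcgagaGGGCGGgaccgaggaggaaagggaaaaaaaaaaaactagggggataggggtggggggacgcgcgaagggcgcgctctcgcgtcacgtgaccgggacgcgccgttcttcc
HNRNPR: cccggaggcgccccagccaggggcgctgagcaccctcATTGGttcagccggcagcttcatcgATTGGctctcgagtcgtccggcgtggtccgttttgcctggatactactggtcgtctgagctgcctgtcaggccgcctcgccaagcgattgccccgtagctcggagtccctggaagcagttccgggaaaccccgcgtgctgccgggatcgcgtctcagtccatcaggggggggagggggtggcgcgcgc
HNRNPH2: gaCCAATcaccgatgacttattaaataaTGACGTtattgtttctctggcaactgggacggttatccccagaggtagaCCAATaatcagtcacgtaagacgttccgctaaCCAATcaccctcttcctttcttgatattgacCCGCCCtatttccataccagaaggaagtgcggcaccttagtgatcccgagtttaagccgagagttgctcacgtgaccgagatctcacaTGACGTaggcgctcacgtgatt
SRSF11: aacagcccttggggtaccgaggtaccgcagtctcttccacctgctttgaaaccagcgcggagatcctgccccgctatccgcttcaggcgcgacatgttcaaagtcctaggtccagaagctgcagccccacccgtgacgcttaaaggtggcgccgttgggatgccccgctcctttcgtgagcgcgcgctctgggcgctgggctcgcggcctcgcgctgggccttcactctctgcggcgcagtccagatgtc
SRSF1: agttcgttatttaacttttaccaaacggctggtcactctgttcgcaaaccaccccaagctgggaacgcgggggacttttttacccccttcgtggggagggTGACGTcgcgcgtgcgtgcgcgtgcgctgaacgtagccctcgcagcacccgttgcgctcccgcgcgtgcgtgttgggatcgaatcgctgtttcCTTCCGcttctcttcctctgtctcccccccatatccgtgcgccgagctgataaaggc
HNRNPA2B1: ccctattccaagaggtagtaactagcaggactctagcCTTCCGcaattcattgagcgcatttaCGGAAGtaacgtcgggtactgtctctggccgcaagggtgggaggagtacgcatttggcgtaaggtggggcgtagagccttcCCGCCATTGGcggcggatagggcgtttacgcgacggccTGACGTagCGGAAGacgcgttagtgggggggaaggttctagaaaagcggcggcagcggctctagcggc
SRSF10: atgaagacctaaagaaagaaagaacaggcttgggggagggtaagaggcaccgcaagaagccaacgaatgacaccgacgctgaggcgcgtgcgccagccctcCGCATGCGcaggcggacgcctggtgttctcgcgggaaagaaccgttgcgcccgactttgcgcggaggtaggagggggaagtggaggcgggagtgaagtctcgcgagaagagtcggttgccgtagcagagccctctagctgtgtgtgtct
SRSF12: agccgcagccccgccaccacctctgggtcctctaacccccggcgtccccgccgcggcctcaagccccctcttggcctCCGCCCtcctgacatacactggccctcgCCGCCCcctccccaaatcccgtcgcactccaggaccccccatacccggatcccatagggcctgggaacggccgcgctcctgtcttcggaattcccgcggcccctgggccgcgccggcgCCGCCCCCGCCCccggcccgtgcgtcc
HNRNPCL1: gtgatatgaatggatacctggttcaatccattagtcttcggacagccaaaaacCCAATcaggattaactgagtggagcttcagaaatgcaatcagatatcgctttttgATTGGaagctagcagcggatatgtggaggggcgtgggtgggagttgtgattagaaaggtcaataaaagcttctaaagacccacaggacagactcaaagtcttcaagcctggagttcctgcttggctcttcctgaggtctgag
The printed windows are, in this order, chr4:82373992-82374241, chr1:23344285-23344534, chrX:101407972-101408221, chr1:70205446-70205695, chr17:58007247-58007496, chr7:26200747-26200996, chr1:23980328-23980577, chr6:89118072-89118321 and chr1:12848721-12848970. HNRNPH2 and SRSF11 lie on the plus strand and the other printed genes on the minus strand. HNRNPD has 1 match each to the TATA box, the Sp1 core and the ETS core, HNRNPR has 2 inverted NF-Y motifs, HNRNPH2 has 3 NF-Y, 2 CREB/ATF and 1 inverted Sp1 matches, and SRSF11 has none of the 8 motifs. SRSF1 has 1 CREB/ATF match and 1 inverted ETS core. In HNRNPA2B1, with 6 matches, the inverted YY1 and NF-Y matches overlap in 1 run of capitals, and the palindromic NRF1 motif stands alone in SRSF10. SRSF12, with no peak, has 4 inverted Sp1 cores, and HNRNPCL1, also without one, has 2 NF-Y matches.

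The RefSeq promoter table matched 34 of the 38 members through 48 promoter entries of 300 bases (250 before to 50 after the start), and all protein-coding genes through 22198 entries. SRSF2, HNRNPA1, HNRNPA1L3 and HNRNPCL3 were not matched. CCAAT, bound by NF-Y, was found in 50.0% of the member entries and 34.7% of all entries. CGGAAG, an ETS core, was found in 35.4% of the member entries and 23.7% of all entries, and GGGCGG, an Sp1 core, in 58.3% of the member entries and 56.3% of all. ATGGCGG, a YY1 core, was present in 14.6% of the member entries and 6.99% of all entries, TGACGT (CREB/ATF) in 14.6% of member entries and 8.94% of all, TATAAA in 12.5% of member entries and 9.47% of all, and CGCATGCG (NRF1) in 6.25% of member entries and 2.49% of all. TTCCTAGAA, a BCL6 sequence, was in 0 of the 48 member entries and in 0.288% of all entries. These shares describe letters in a window and were not tested. Member entries held a median of 29 CpG dinucleotides in 300 bases, against 21 in all entries. The lowest counts were 3 in both entries of SRSF8, an intronless copy of SRSF2, and 4 in HNRNPCL1 and HNRNPCL4, copies of HNRNPC, and these were also among the genes with few or no peaks. SRSF12, however, had 37 CpG dinucleotides and no peak in any list.

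A gene was counted as occupied when a peak came within 1 kb of either gene end, and for Ser2P when a peak came within 2 kb of any part of the gene. Of the 38 members, SRSF2 had a peak within 2 kb of the gene in all 33 lists, and SRSF7, HNRNPA2B1 and HNRNPK in 32. In all, 29 members had a peak in 15 to 33 lists. SRSF12, HNRNPA1L3, HNRNPCL1, HNRNPCL2, HNRNPCL3 and HNRNPCL4 had none. The remaining 3 were SRSF8 with 5 lists, HNRNPLL with 8 and HNRNPA1L2 with 1. HNRNPCL1 to HNRNPCL4, HNRNPA1L2 and HNRNPA1L3 are near-copies of HNRNPC and HNRNPA1, and how reads that fit several copies were placed is not given in the sources used here, so their empty rows are uncertain. At 15 members a window reached another protein-coding gene, such as CBX3 beside HNRNPA2B1, METTL23 and MFSD11 beside SRSF2 or PNRC2 beside SRSF10, and a peak there cannot be assigned to 1 of the neighbours.

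**Figure D1:**
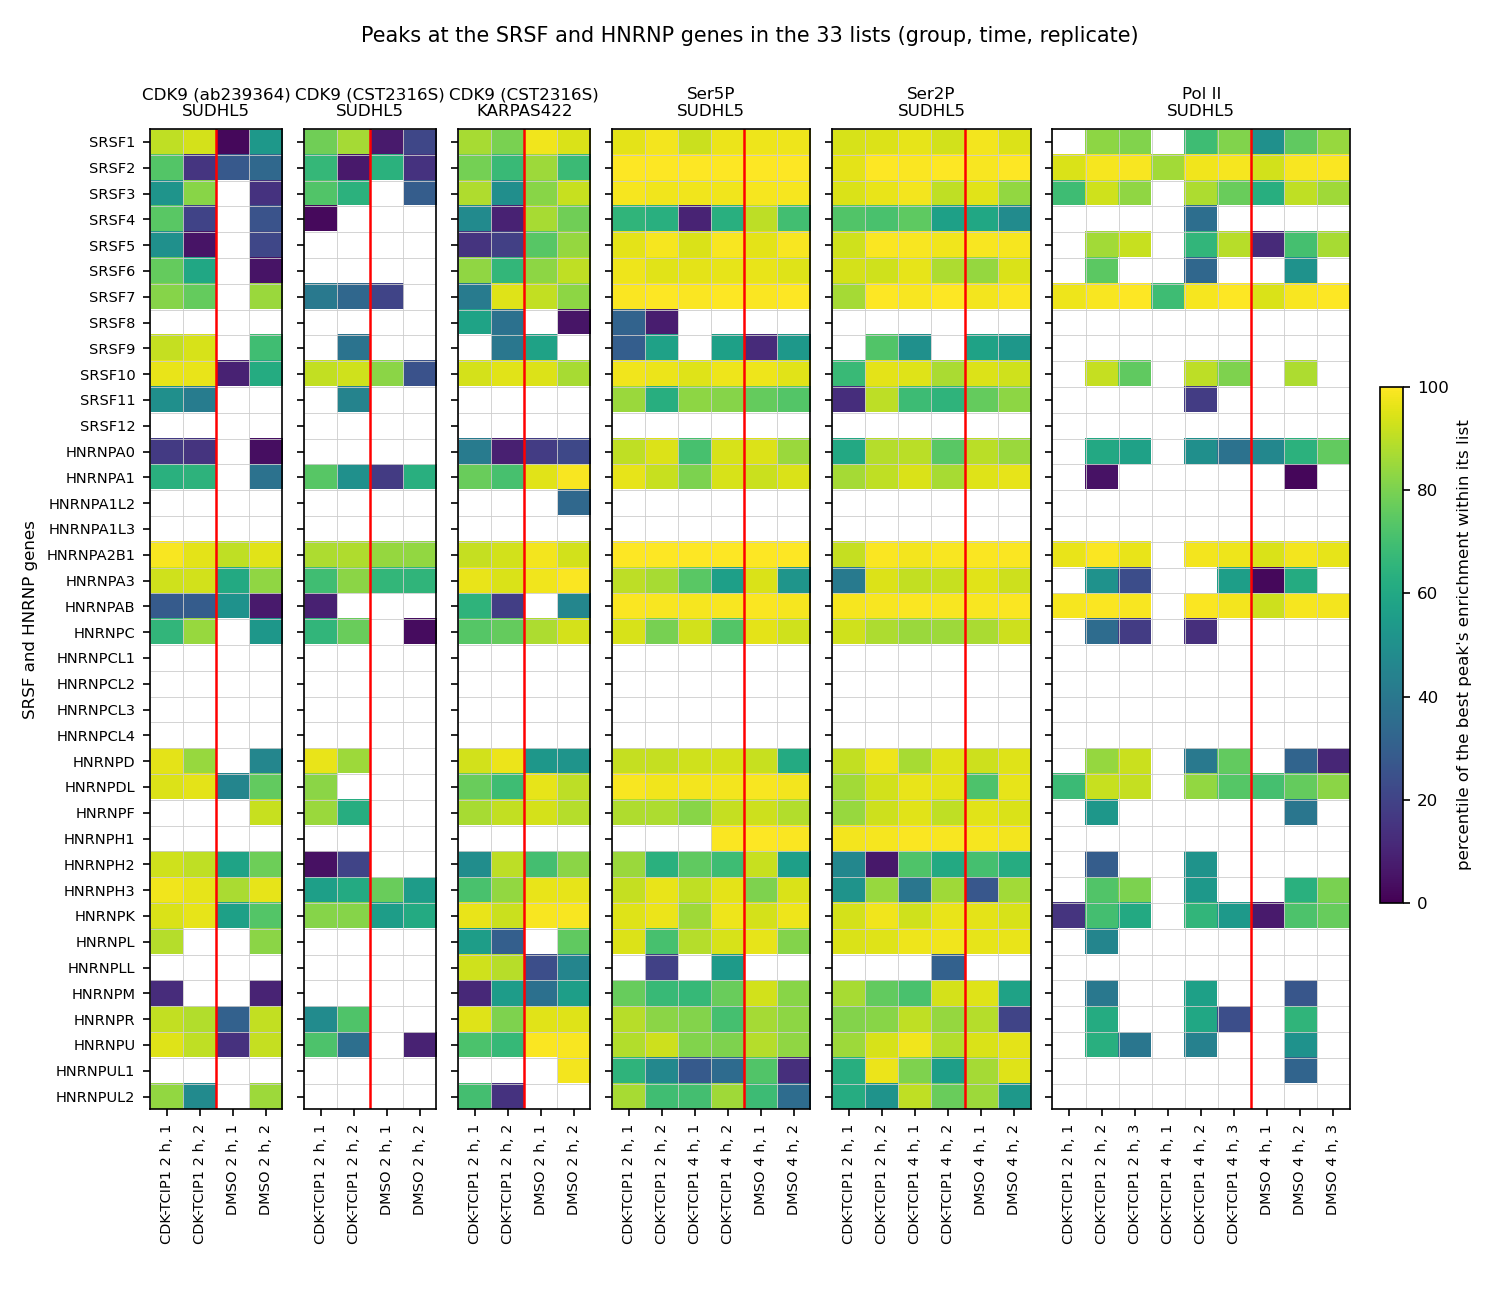
Peaks at each SRSF and HNRNP gene (rows) in the 33 lists (columns, by set; CDK-TCIP1 lists stand left of the red line and DMSO lists right of it). Colour gives the percentile, within its own list, of the enrichment of the best peak over the gene with 2 kb either side, and white means no peak by the rule of that set; SRSF2 is filled in every column, and SRSF12 and the HNRNPCL genes are white throughout.

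Facts of the whole series bear on these values. The lists held 138 to 28955 peaks, read totals are not given and depth is therefore unknown. The first DMSO list with ab239364 (915 peaks, against 3509 in the second), the first Ser2P list at 2 h (6519 peaks) and the first Pol II list at 4 h (138 peaks) stand apart from the other lists of their groups. The B-cell markers MS4A1, CD79A, CD79B, PAX5, CD22 and BLK had a Ser5P peak in DMSO-treated SUDHL5 and a CDK9 peak in KARPAS422, and CIITA had the Ser5P peak in SUDHL5 but no CDK9 peak in KARPAS422. Of 4 T-cell markers 1 in SUDHL5 and 2 in KARPAS422 had such a peak (CD3E in both, CD3D in KARPAS422), and of 4 myeloid and 5 other-tissue markers none had. With 2 lists against 2, an exact two-sided permutation test cannot give a p below 0.333, and with 3 against 3 none below 0.1, so gained and lost peaks are given as counts without a test. A peak list also cannot tell a change in every cell from a change in part of the cells.

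CDK9 was already listed at many members without the compound. At gene ends, 26 and 24 members carried a CDK9 peak in the CDK-TCIP1 lists with ab239364, and 12 and 26 in the DMSO lists. These are 68.4% and 63.2% of the members after CDK-TCIP1 and 31.6% and 68.4% in DMSO, while the same lists covered 24% and 24.2% of all protein-coding genes after CDK-TCIP1 and 3.95% and 13.4% in DMSO. With CST2316S in SUDHL5, 19 and 18 members had a peak after CDK-TCIP1 and 9 and 11 in DMSO, and the shares of all genes were 11.1% and 10.4% after CDK-TCIP1 against 1.91% and 1.58% in DMSO. In KARPAS422 the counts were 27 and 28 members after CDK-TCIP1 and 24 and 28 in DMSO, and the shares of all genes were 26.7% and 20.4% after CDK-TCIP1 against 15.5% and 18.2% in DMSO. The members' share lay above that of all genes in each of these 12 lists. With ab239364 the counts of the treated and DMSO lists overlap, and the 2 DMSO lists are further apart than the 2 treated lists.

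**Figure D2:**
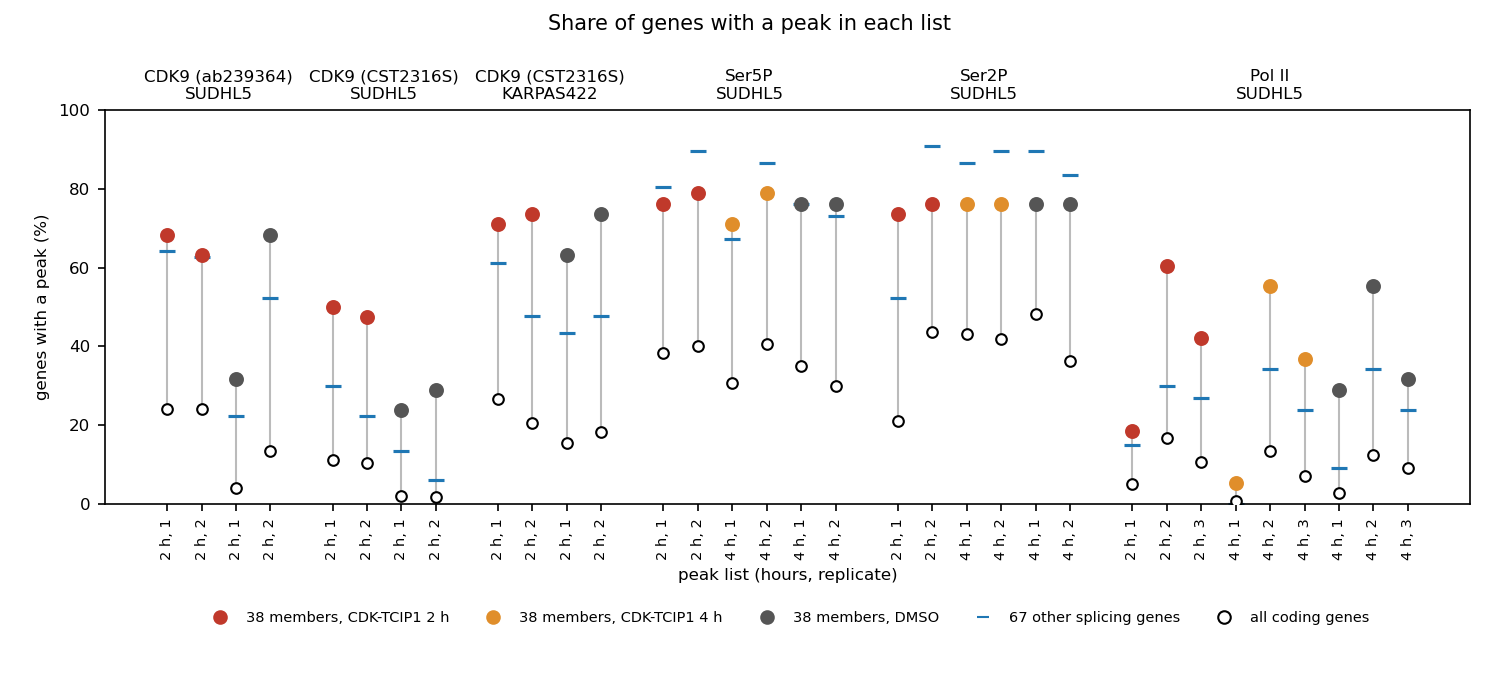
Share of genes with a peak in each list, in percent (vertical axis), for the 38 SRSF and HNRNP genes (filled circles, red and orange after CDK-TCIP1, grey in DMSO), 67 other splicing genes (dashes) and all protein-coding genes (open circles). The filled circles lie above the open circles in every list, with 5.26% against 0.569% in the shortest Pol II list and 78.9% against 40.7% in the second Ser5P list at 4 h.

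Of the 38 members, 7 (18.4%) were occupied by CDK9 in all 12 of its lists, DMSO included: SRSF1, SRSF2, SRSF10, HNRNPA2B1, HNRNPA3, HNRNPH3 and HNRNPK. Among all protein-coding genes 116, or 0.579%, did so. Of the 7, all but HNRNPA3 share a window with another protein-coding gene, so a peak there cannot be assigned to 1 of the neighbours. How many of the 116 share a window was not counted. SRSF1 is the prototype SR protein, SRSF2 marks nuclear speckles, HNRNPK binds runs of C through KH domains and HNRNPA2B1 sorts and splices many RNAs. CDK9 peaks of the members sat at starts: of the 34 members with a known strand, 10 to 29 had a CDK9 peak within 1 kb of a promoter-table start and 0 to 2 had one within 1 kb of the 3′ end, depending on the list. Counted over bases, the members held 0.587% and 0.403% of all bases under ab239364 peaks after CDK-TCIP1, and 2.37% and 1.3% in DMSO. With CST2316S they held 0.254% and 0.23% after CDK-TCIP1 and 0.711% and 0.848% in DMSO in SUDHL5, and 0.288% and 0.343% after CDK-TCIP1 against 0.544% and 0.497% in DMSO in KARPAS422. In all 3 sets the members' part of the list was smaller in both treated lists than in both DMSO lists. The treated lists also covered more in all, 7.83 and 12.5 Mb against 0.573 and 2.07 Mb in DMSO with ab239364. With CST2316S in SUDHL5 the totals were 15.5 and 15.8 Mb against 1.57 and 1.3 Mb in DMSO. In KARPAS422 they were 19.6 and 12.3 Mb against 8.13 and 10.8 Mb in DMSO. Within each set the members' part fell as the total rose, and an effect of list size was not tested.

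Gained peaks, present in both CDK-TCIP1 lists and in no DMSO list, were found at 4 members with CST2316S in SUDHL5, at 1 with ab239364 and at 1 in KARPAS422. With CST2316S in SUDHL5 the 4 were HNRNPD, HNRNPR, HNRNPF and HNRNPH2, out of 26 members that had no DMSO peak and so could be gained (15.4%). Among all genes that could be gained there, 6.47% were. With ab239364, SRSF11 was the 1 gained of 12 that could be (8.33%), against 8.76% of all genes. In KARPAS422 HNRNPUL2 was the 1 of 9 (11.1%), against 5.52%. Of those that could be, the other 11 with ab239364 and the other 8 in KARPAS422 had no gene-end peak in any list of their set. No member lost its peak in the 3 CDK9 sets, of 12 that could with ab239364, 8 with CST2316S in SUDHL5 and 23 in KARPAS422. The share of all genes with a peak in every DMSO list that lost it was 0.268% with ab239364, 0% with CST2316S in SUDHL5 and 4.84% in KARPAS422. With so few members and such low shares, the absence of losses says little about the members. The ab239364 count rests on 1 list: without the second DMSO list, 12 of 26 members that could be were gained, against 15.6% of all genes. In SUDHL5 with CST2316S, 7 members were gained without the second DMSO list (of 29, against 6.83% of all genes) and 7 without the second treated list (of 26, against 9.07%). Without the second DMSO list of KARPAS422, 4 of 14 were gained, against 8.05%.

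HNRNPD, or AUF1, binds AU-rich elements and directs mRNA decay. With CST2316S in SUDHL5 its gene (chr4:82352498-82373991) had 2.98 and 2.35 kb under CDK9 peaks in the CDK-TCIP1 lists, against 0 and 0 kb in the DMSO lists. The peaks, chr4:82372156-82375133 and chr4:82372481-82374828, span the annotated start whose upstream bases are printed above, and their enrichment (the authors' value) stood at the 96.6th and 85.2nd percentile of their lists. With ab239364 the gene had 2.42 and 2.57 kb covered after CDK-TCIP1, against 0 and 0.864 kb in DMSO. In KARPAS422 it had 1.98 and 2.06 kb after CDK-TCIP1, against 1.54 and 1.6 kb in DMSO. Treated and DMSO lists do not overlap in any of the 3 sets, although in KARPAS422 the peak was there without the compound and the change did not pass the test (log2 change 0.35 ± 0.20, SE, adjusted p = 0.383, limma).

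HNRNPR, an RNA-binding protein close to SYNCRIP, had 0.958 and 1.04 kb covered with CST2316S in SUDHL5 after CDK-TCIP1 and 0 and 0 kb in DMSO. The peaks, chr1:23343397-23344354 and chr1:23343257-23344297, cover the annotated start and lie mostly inside the gene. With ab239364 the same gene was covered in every list, with 1.35 and 1.15 kb after CDK-TCIP1 and 0.482 and 0.7 kb in DMSO. HNRNPH2, the X-linked member of the G-run binding H and F group, had 0.731 and 0.606 kb after CDK-TCIP1 against 0 and 0 kb in DMSO with CST2316S in SUDHL5, and 0.557 and 0.719 kb after CDK-TCIP1 against 0.378 and 0.533 kb in DMSO with ab239364. HNRNPR and HNRNPH2 were thus gained with CST2316S, while with ab239364 both had a peak in DMSO as well. HNRNPF, a paralogue of HNRNPH2, had 3.45 and 3.9 kb after CDK-TCIP1 and 1.05 and 1.06 kb in DMSO with CST2316S in SUDHL5. Its DMSO peaks, such as chr10:43396798-43397417, lie at the internal start of the gene, out of reach of the windows at the gene ends (chr10:43385618-43409186), and both treated lists also had a peak within 1 kb of a gene end. With ab239364 HNRNPF had 2.62 and 2.31 kb after CDK-TCIP1 against 1.56 and 1.84 kb in DMSO, but there the gene-end windows held a peak in neither treated list and in the second DMSO list. In KARPAS422 it had 5.52 and 3.84 kb after CDK-TCIP1 against 4.42 and 4.22 kb in DMSO, with a gene-end peak in every list.

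SRSF11, an SR-related protein found with U2AF, had 0.429 and 1.3 kb covered with ab239364 after CDK-TCIP1, against 0 and 0 kb in DMSO. With CST2316S it had 0 and 0.385 kb after CDK-TCIP1 and 0 and 0 kb in DMSO in SUDHL5. In KARPAS422 a peak of 0.647 and 0.675 kb after CDK-TCIP1 and 0.609 and 0.644 kb in DMSO lay inside the gene, outside the gene-end windows (chr1:70221540-70222186 in the first treated list). SRSF11 was thus gained with ab239364, listed in 1 treated list with CST2316S in SUDHL5, and present in all 4 lists of KARPAS422. HNRNPUL2, a relative of HNRNPU, had 2.2 and 0.389 kb in KARPAS422 after CDK-TCIP1 and 0 and 0 kb in DMSO. Its best peaks there, chr11:62728476-62729325 and chr11:62728431-62728819, begin beyond the gene's start towards the neighbour TTC9C. With the annotated end of the gene at chr11:62727457, the second peak touches only the edge of the 1 kb window. The first lies just outside that window, and another peak of the same list lay within it. In SUDHL5 it had 1.67 and 0.901 kb with ab239364 after CDK-TCIP1 against 0 and 1.01 kb in DMSO, where the groups overlap, and no peak in any CST2316S list.

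The covered length, the bases of a gene with 2 kb either side that lie under peaks, was tested with limma on log2(bases + 100) over all genes with a peak in at least 2 of the 4 lists of a CDK9 set, or 3 of the 6 lists of a polymerase set. A gene that enters through its treated lists alone had to differ, so the counts describe the lists and are read against all genes tested. Of the rises, 80.4% over all genes with CST2316S in SUDHL5 and 93.3% with ab239364 were of genes with no peak in either DMSO list. With CST2316S in SUDHL5, 19 members were tested and 13 rose, with none lower, while 87.9% of all 2872 genes tested rose and 0% fell. Of these 13 members, HNRNPD, HNRNPDL, HNRNPH2 and HNRNPR had no peak in either DMSO list, and the other 9 had one. The members' median log2 change was 1.95 and that of all genes tested 3.55. With ab239364, 29 members were tested and 1 passed, against 39.4% of all genes higher and 0.0384% lower. It was SRSF11, whose DMSO lists had no peak, so that the test repeats its gain. The medians were 1.43 for the members and 2.41 for all genes. In KARPAS422, 31 members were tested and none passed, with 1 member at an unadjusted p under 0.05, against 18% of all genes higher and 2.05% lower, and the medians were 0.03 for the members and 0.67 for all genes. Of the rises over all genes there, 92.4% were of genes with no peak in either DMSO list, and 1 tested member was of that kind. No gene at all passed in KARPAS422 with the replicate block, with 1000 bases added or with the median of each list subtracted. With the median of each list subtracted, no member rose in any of the 3 sets and 13 of 19 were lower with CST2316S in SUDHL5, against 31.2% of all genes lower and 16.4% higher, so the rises below are those of the lists as deposited. In the CST2316S set of SUDHL5, 0 of 15 members passed without the first CDK-TCIP1 list, against 34.4% of all genes, and 0 of 15 without the second, against 36.7%. With ab239364, 18 of 28 members passed without the second DMSO list, against 86.9% of all genes. There, 0 passed without the first DMSO list, without the first treated list or without the second, against 21.8%, 7.55% and 4.6% of all genes.

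Only genes with a peak in every list of a set are free of entry through 1 group. Of 431 such genes with CST2316S in SUDHL5, 80.3% rose, and of the 11 members among them 8 rose, with medians of 1.06 for the members and 2.04 for all. With ab239364, 24.5% of 911 genes and 1 of 14 members rose (HNRNPDL, adjusted p = 0.0395), and in KARPAS422, 1.37% of 2914 genes and 0 of 27 members.

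Among the SR genes, SRSF1 had 2.96 and 2.88 kb covered with CST2316S in SUDHL5 after CDK-TCIP1, against 0.379 and 0.474 kb in DMSO (log2 change 2.52 ± 0.15, SE, adjusted p = 0.00106). The lists of the 2 groups were far apart, and the peak over the start of the gene (chr17:57989038-58007246, minus strand) was chr17:58005845-58008801 in the first treated list and chr17:58006620-58006998 in the first DMSO list. With ab239364 SRSF1 had 2.98 and 2.95 kb after CDK-TCIP1 against 0.925 and 1.16 kb in DMSO (1.43 ± 0.34, adjusted p = 0.0542), and in KARPAS422 2.48 and 1.76 kb after CDK-TCIP1 against 1.23 and 1.07 kb in DMSO (0.81 ± 0.29, adjusted p = 0.1997). Treated lists lay above DMSO lists in all 3 sets, and only the first passed the test. SRSF3, the smallest SR protein, had 2.63 and 2.88 kb after CDK-TCIP1 against 0 and 0.463 kb in DMSO with CST2316S in SUDHL5 (3.59 ± 1.03, adjusted p = 0.0468), 1.28 and 2.83 kb after CDK-TCIP1 against 0 and 0.572 kb in DMSO with ab239364, and 1.8 and 1.72 kb after CDK-TCIP1 against 1.11 and 1.96 kb in DMSO in KARPAS422, where the groups overlap. SRSF10, which represses splicing when dephosphorylated, had 3.69 and 2.78 kb after CDK-TCIP1 against 1.32 and 1.6 kb in DMSO with CST2316S in SUDHL5 (1.09 ± 0.22, adjusted p = 0.021), 1.69 and 2.65 kb after CDK-TCIP1 against 1.14 and 1.13 kb in DMSO with ab239364, and 1.84 and 1.1 kb after CDK-TCIP1 against 1.9 and 2.5 kb in DMSO in KARPAS422. In KARPAS422 the treated lists of SRSF10 were thus the lower ones.

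SRSF2 did not separate in the same way. It had 0.987 and 0.481 kb with CST2316S in SUDHL5 after CDK-TCIP1, against 0.663 and 0.918 kb in DMSO (-0.15 ± 0.42, adjusted p = 0.756). With ab239364 it had 2.33 and 1.12 kb after CDK-TCIP1 against 0.57 and 0.975 kb in DMSO, and in KARPAS422 1.85 and 1.42 kb after CDK-TCIP1 against 1.54 and 2.33 kb in DMSO. The groups overlap in both CST2316S sets and not with ab239364, where the change did not pass the test (adjusted p = 0.258). SRSF7, an SR protein with a zinc knuckle, had 2.27 and 0.994 kb after CDK-TCIP1 against 0.986 and 0.446 kb in DMSO with CST2316S in SUDHL5, 1.79 and 1.77 kb after CDK-TCIP1 against 0 and 1.03 kb in DMSO with ab239364, and 1.57 and 1.78 kb after CDK-TCIP1 against 1.4 and 0.873 kb in DMSO in KARPAS422. Its treated lists were above its DMSO lists each time, by little in the first set, and no change passed the test.

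In the A and B group of hnRNPs, HNRNPA2B1 had 2.98 and 2.99 kb with CST2316S in SUDHL5 after CDK-TCIP1, against 1.78 and 1.52 kb in DMSO (0.82 ± 0.14, adjusted p = 0.0133). It had the longest covered length of the 9 best-known members with ab239364, 4.28 and 4.43 kb after CDK-TCIP1 against 2.34 and 3.54 kb in DMSO. In KARPAS422, with 3.42 and 3.33 kb after CDK-TCIP1 against 3.01 and 3.27 kb in DMSO, the groups differed by little. HNRNPA1, which antagonises SRSF1 at many exons, had 1.35 and 1.59 kb after CDK-TCIP1 against 0.908 and 0.851 kb in DMSO with CST2316S in SUDHL5 (0.68 ± 0.15, adjusted p = 0.0234), 1.52 and 2.02 kb after CDK-TCIP1 against 0 and 1.05 kb in DMSO with ab239364, and 1.84 and 1.4 kb after CDK-TCIP1 against 1.19 and 1.66 kb in DMSO in KARPAS422. HNRNPA3 rose with CST2316S in SUDHL5 by 1.95 ± 0.19 (adjusted p = 0.00321), with 2.03 and 2.28 kb after CDK-TCIP1 and 0.556 and 0.416 kb in DMSO.

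HNRNPK had 2.79 and 2.63 kb with CST2316S in SUDHL5 after CDK-TCIP1, against 1.3 and 0.751 kb in DMSO (1.37 ± 0.32, adjusted p = 0.0278), and 1.99 and 2.55 kb after CDK-TCIP1 against 1.59 and 1.7 kb in DMSO with ab239364. In KARPAS422 it had 2.76 and 2.31 kb after CDK-TCIP1 against 2.76 and 3.48 kb in DMSO, and the groups meet at the first list of each. HNRNPU, a chromatin-bound scaffold protein, had 1.57 and 1.25 kb after CDK-TCIP1 against 0 and 0.632 kb in DMSO with CST2316S in SUDHL5, 2.21 and 2.9 kb after CDK-TCIP1 against 1.42 and 1.68 kb in DMSO with ab239364, and 2.44 and 1.7 kb after CDK-TCIP1 against 2.48 and 3.31 kb in DMSO in KARPAS422. HNRNPC, which binds uridine tracts and packages long transcripts, had 1.11 and 2.62 kb after CDK-TCIP1 against 0 and 0.363 kb in DMSO with CST2316S in SUDHL5, 1.2 and 2.85 kb after CDK-TCIP1 against 0 and 0.417 kb in DMSO with ab239364, and 2.75 and 1.6 kb after CDK-TCIP1 against 2.58 and 2.43 kb in DMSO in KARPAS422. For HNRNPU and HNRNPC treated lists were above DMSO lists with both antibodies in SUDHL5 and not in KARPAS422, where those of HNRNPU were below, and none of these changes passed the test. The 3 largest fitted changes past the threshold in that set were those of HNRNPD (4.78), SRSF3 (3.59) and HNRNPR (3.46). All 3 sizes depend on the 100 bases added, since HNRNPD and HNRNPR had no peak in either DMSO list and SRSF3 none in the first. HNRNPD and HNRNPR could enter the test through their treated lists alone, so no p is given for them.

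**Figure D3:**
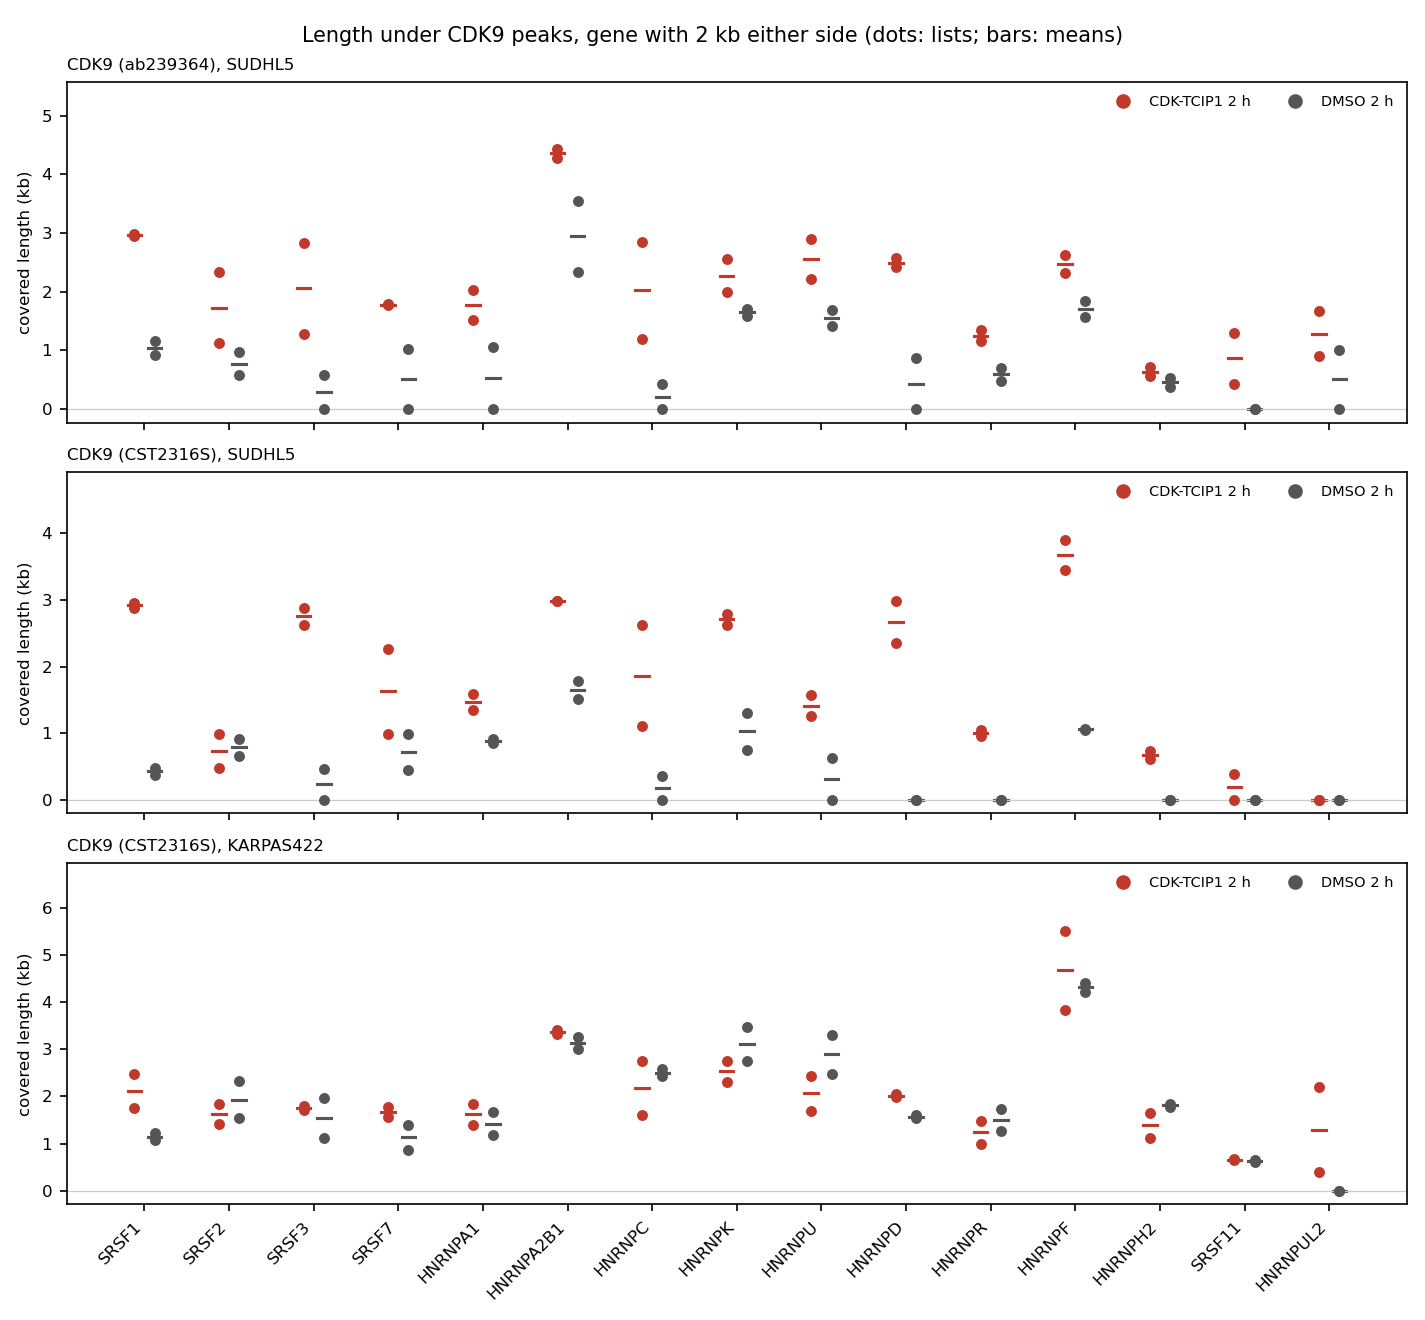
Length under CDK9 peaks in kb (vertical axis) over each gene with 2 kb either side, for the 9 best-known members and the 6 members gained in some set (horizontal axis), in the 3 CDK9 sets; dots are lists, bars their means, red CDK-TCIP1 and grey DMSO, both at 2 h. In SUDHL5 the red dots of SRSF1, HNRNPK and HNRNPD lie above the grey ones with both antibodies, and in KARPAS422 the grey dots of HNRNPK and HNRNPU reach as high as the red ones or higher.

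**Figure D4:**
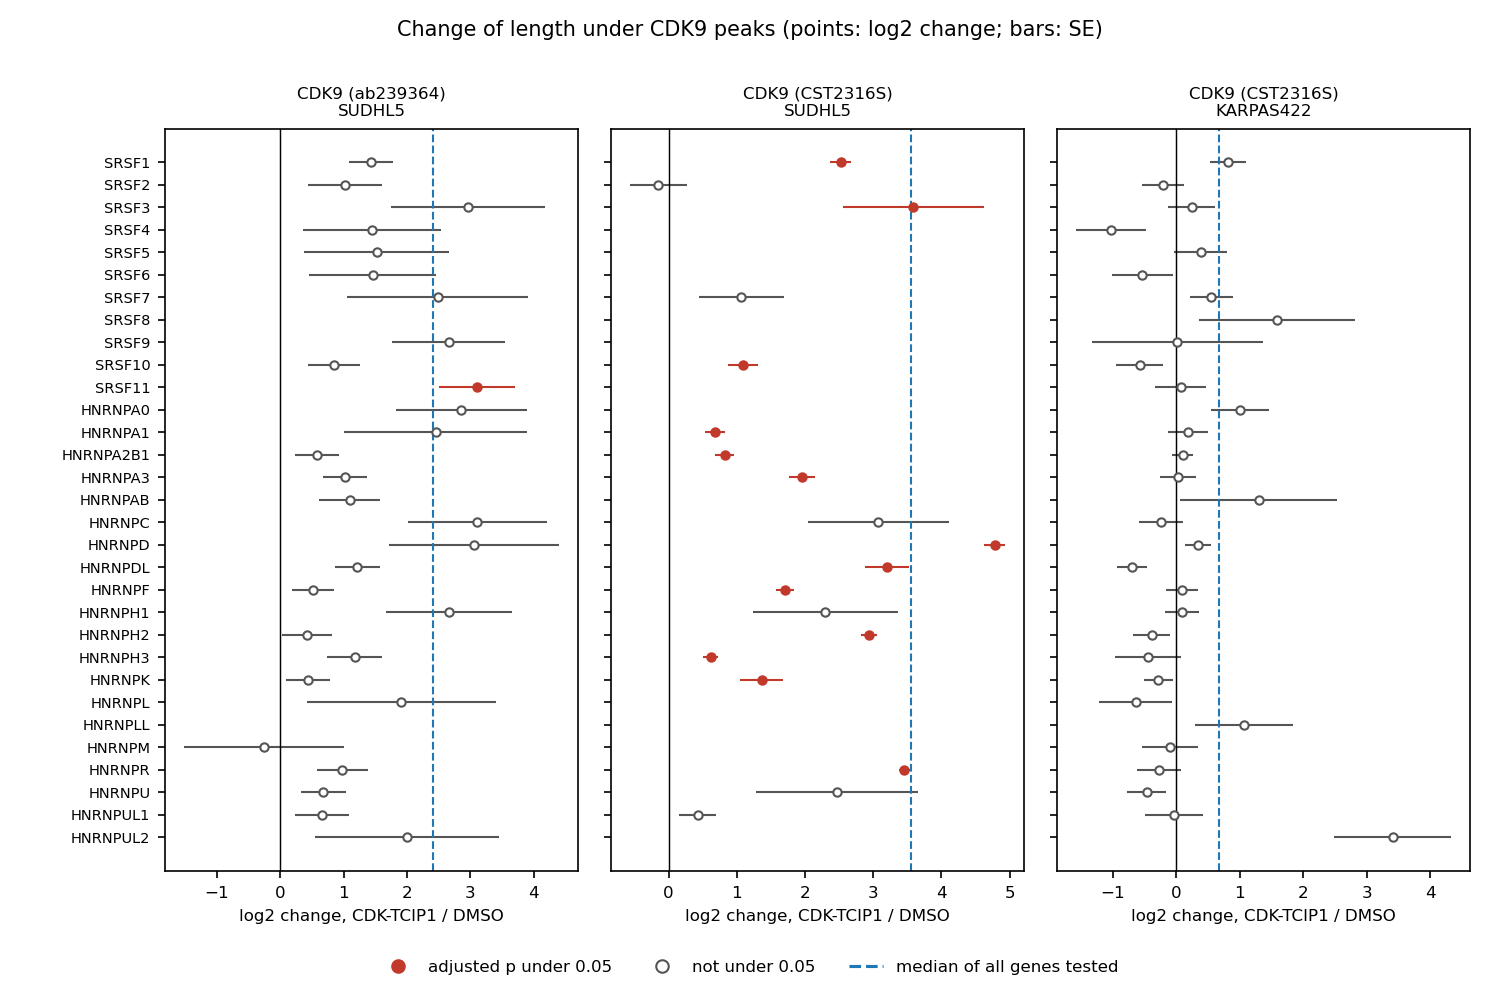
Log2 change of covered length, CDK-TCIP1 over DMSO (horizontal axis; points with SE bars), of each member tested in the 3 CDK9 sets; filled red points passed adjusted p under 0.05 and the dashed line is the median of all genes tested. With CST2316S in SUDHL5, 13 points are filled and HNRNPD and SRSF3 alone lie right of the median of 3.55; in KARPAS422 none is filled.

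Whether the change in CDK9 differed between the lines was fitted as an interaction over the 8 CST2316S lists. Of 28 members tested, 9 rose more in SUDHL5 than in KARPAS422 and none less, and 31.4% of the 3865 genes tested did so, a share close to that of the members. HNRNPD differed most (4.43 ± 0.32 on the log2 scale, adjusted p = 0.00053), with changes of 4.78 in SUDHL5 and 0.35 in KARPAS422. HNRNPDL (3.90), HNRNPR (3.73), HNRNPH2 (3.33), HNRNPA3 (1.93), SRSF1 (1.71), SRSF10 (1.67), HNRNPK (1.65) and HNRNPF (1.61) followed. The peaks were already present in the DMSO lists of KARPAS422 at all 9 of these genes. The SUDHL5 changes of HNRNPD, HNRNPDL, HNRNPR and HNRNPH2 depend on the 100 bases added, since those genes had no DMSO peak there. Their DMSO values there also show no spread, so their p-values in this fit may be too small. With the median of each list subtracted, HNRNPD and HNRNPR alone passed as higher, against 9.96% of all genes. The differences of HNRNPDL (1.32) and HNRNPH2 (0.74) then kept their sign without passing, those of HNRNPA3, SRSF1, SRSF10 and HNRNPK were negative without passing, and HNRNPF passed as lower (-0.97, adjusted p = 0.0369). In that fit 11 members passed as lower, against 32% of all genes, but 5 of them (HNRNPA0, SRSF5, SRSF6, HNRNPM and HNRNPL) had no peak in any CST2316S list of SUDHL5, so that their SUDHL5 value is the subtracted median alone.

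The same calls were made for splicing genes outside both families. Of 67 such genes in 4 lists (SR-related proteins and kinases, splice-site and U2 proteins, snRNP proteins, hnRNP-like proteins), 9 of 32 that could be were gained with ab239364 (28.1%, against 8.33% of the SRSF and HNRNP genes and 8.76% of all genes). With CST2316S, 6 of 57 were gained in SUDHL5 (10.5%, against 15.4% of the SRSF and HNRNP genes and 6.47% of all genes) and 4 of 31 in KARPAS422 (12.9%, against 11.1% of the SRSF and HNRNP genes and 5.52% of all genes). These shares were not tested against each other. With ab239364, 11 of the 12 members that could be gained had no gene-end peak in any list of that set. In KARPAS422 this held for 8 of 9. Among the other splicing genes it held for 17 of 32 and 22 of 31. SRSF12, HNRNPA1L3 and HNRNPCL1 to HNRNPCL4 had no peak of any kind. HNRNPH1 and HNRNPUL1 had ab239364 peaks inside the gene in treated and DMSO lists. Few members with peaks could be gained in these sets, so their shares do not rank the groups. Examples of gained genes outside both families are the U2 proteins SF3B1, gained with both antibodies in SUDHL5, and SF3B4. Another is the nuclear import receptor TNPO3, gained with ab239364 in SUDHL5 and in KARPAS422. The paraspeckle protein SFPQ and the splicing factor MBNL1 were gained with CST2316S. PTBP1, a repressor of exon inclusion, was the 1 lost in KARPAS422 of 25 that could be, where 4.84% of all genes were lost. In all 12 CDK9 lists the share of these 67 genes with a peak lay between that of all genes and that of the SRSF and HNRNP genes.

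Ser5P marked nearly all members that had any peak. At gene ends, 29 and 30 members carried Ser5P after 2 h of CDK-TCIP1, 27 and 30 after 4 h, and 29 and 29 in DMSO, while the shares of all genes were 38.2% and 40.2% after 2 h, 30.8% and 40.7% after 4 h, and 35.1% and 29.9% in DMSO. For 9 members, namely SRSF2, SRSF3, SRSF6, SRSF7, SRSF10, HNRNPA2B1, HNRNPAB, HNRNPDL and HNRNPH1, the best Ser5P peak was at or above the 95th percentile of enrichment in each of the 6 lists. SRSF8 was gained at 2 h, the 1 of 9 members that could be (11.1%), with 0.527 and 0.676 kb after 2 h, 0 and 0 kb after 4 h and 0 and 0 kb in DMSO, and 4.4% of all genes were gained. Its peaks ranked low in their lists, at percentiles 31.8 and 7.87. HNRNPH1 was lost at 2 h, when 0.955% of all genes were, since a peak within 1 kb of its 3′ end was listed in both DMSO lists and in neither 2 h list. Its main peak, at the internal starts (chr5:179620111-179624336 in the first 2 h list), stood at percentile 99.7 and 99.5 after 2 h, 99.6 and 99.5 after 4 h and 99.8 and 99.3 in DMSO. At 4 h no member was gained or lost, against 2.25% and 1.54% of all genes.

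The covered length of Ser5P changed at none of the 29 members tested, as at 0% of all 8748 genes at 2 h and 0% at 4 h. At unadjusted p under 0.05 there were 748 genes at each time, with 1 member at 2 h and 2 at 4 h. The members' median log2 change was -0.14 at 2 h and -0.21 at 4 h, and that of all genes 0.38 and 0.06. SRSF1 had 7 and 4.38 kb after 2 h, 4.46 and 6.19 kb after 4 h and 7.7 and 8.52 kb in DMSO. SRSF2 had 4.37 and 4.69 kb after 2 h, 4.26 and 5.29 kb after 4 h and 5.12 and 4.9 kb in DMSO. SRSF7 had 6.47 and 6.26 kb after 2 h, 5.68 and 8 kb after 4 h and 6.21 and 6.59 kb in DMSO. SRSF1 thus lay below both DMSO lists in all 4 treated lists, while SRSF2 and SRSF7 stayed within a narrow band. SRSF3 had 9.26 and 5.62 kb after 2 h, 7.82 and 9.29 kb after 4 h and 8.39 and 4.28 kb in DMSO. HNRNPA1 had 7.25 and 6.42 kb after 2 h, 6.42 and 5.37 kb after 4 h and 7.81 and 7.5 kb in DMSO. HNRNPA1 was thus below its DMSO lists in all 4 treated lists, and the treated lists of SRSF3 overlap with DMSO. HNRNPA2B1 had 11.5 and 8.14 kb after 2 h, 8.9 and 12.8 kb after 4 h and 11.5 and 9.86 kb in DMSO. HNRNPC had 20.4 and 9.65 kb after 2 h, 13.2 and 11.3 kb after 4 h and 22.7 and 14.1 kb in DMSO. For HNRNPA2B1 and HNRNPC the 2 h lists overlap with DMSO. The 4 h lists of HNRNPC were below its DMSO lists, and those of HNRNPA2B1 overlap with DMSO. HNRNPK had 5.62 and 4.98 kb after 2 h, 6.18 and 5.98 kb after 4 h and 9.16 and 5.26 kb in DMSO. HNRNPU had 6.28 and 3.48 kb after 2 h, 3.65 and 4.21 kb after 4 h and 7.5 and 3.86 kb in DMSO. Treated and DMSO lists overlap for HNRNPK and HNRNPU. The lowest unadjusted p at 4 h were those of HNRNPUL1 (-1.39 ± 0.38, adjusted p = 0.384), with 0.905 and 1.5 kb after 4 h and 4.03 and 2.56 kb in DMSO, and HNRNPM (-1.54 ± 0.44, adjusted p = 0.397), with 0.83 and 1.18 kb after 4 h and 4.64 and 2.02 kb in DMSO.

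Ser2P lay over 28 and 29 members after 2 h, 29 and 29 after 4 h and 29 and 29 in DMSO, while the shares of all genes were 21% and 43.7% after 2 h, 43.1% and 41.8% after 4 h, and 48.3% and 36.3% in DMSO. No member was gained or lost at either time, against 0.272% gained and 5.79% lost among all genes at 2 h and 2.76% and 3.53% at 4 h. Peaks reached the 3′ end more often than those of CDK9: within 1 kb of it were 8 and 14 members after 2 h, 15 and 15 after 4 h and 15 and 19 in DMSO, of 34. Ser5P reached it at 16 and 12 members after 2 h, 8 and 10 after 4 h and 19 and 12 in DMSO. In the first 2 h list, which has the fewest peaks, the members had 47.95 kb covered in all, against 112 kb in the second 2 h list, 117.8 and 105.9 kb after 4 h and 118.7 and 138.9 kb in DMSO.

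The covered length of Ser2P passed at none of the 29 members tested, nor at any of all 8610 genes (0% at 2 h and 0% at 4 h). At an unadjusted p under 0.05 there were 815 genes and 3 members at 2 h, and 260 genes and 0 members at 4 h. The members' medians were -0.63 at 2 h and -0.06 at 4 h and those of all genes -0.85 and -0.04. The value at 2 h rests on the first list: without it the members' median was 0.07, and without the second list it was -1.35 and 10 of 29 members were lower with an adjusted p under 0.05, against 29.6% of all genes. HNRNPC had 1.36 and 10.4 kb after 2 h, 8.97 and 9.33 kb after 4 h and 12.7 and 19.2 kb in DMSO. HNRNPL, which binds CA repeats, had 3.57 and 4.78 kb after 2 h, 7.9 and 6.66 kb after 4 h and 12.5 and 9.57 kb in DMSO. Both were below their DMSO lists in all 4 treated lists, and neither passed (at 2 h adjusted p = 0.485 for HNRNPC and 0.47 for HNRNPL). SRSF3 had 1.91 and 3.34 kb after 2 h, 7.5 and 5.98 kb after 4 h and 5.84 and 5.84 kb in DMSO, so its 2 h lists were below and its 4 h lists above DMSO. For the remaining best-known members the first 2 h list was the lower of the 2 each time. SRSF1 had 2.32 and 9.42 kb after 2 h, 6.53 and 5.39 kb after 4 h and 7.04 and 11.9 kb in DMSO. SRSF2 had 2.73 and 4.95 kb after 2 h, 4.16 and 4.76 kb after 4 h and 3.18 and 5.23 kb in DMSO. SRSF7 had 3.31 and 4.71 kb after 2 h, 5.24 and 6.59 kb after 4 h and 2.79 and 5.82 kb in DMSO. The groups of these 3 SR genes overlap at 2 h. At 4 h both lists of SRSF1 were below its DMSO lists, while those of SRSF2 and SRSF7 overlap with DMSO. HNRNPA1 had 2.51 and 4.49 kb after 2 h, 7.06 and 5.09 kb after 4 h and 5.51 and 5.71 kb in DMSO. HNRNPA2B1 had 5.4 and 6.87 kb after 2 h, 8.52 and 10.4 kb after 4 h and 8.49 and 9.89 kb in DMSO. HNRNPA1 and HNRNPA2B1 were below DMSO at 2 h and within or around it at 4 h. HNRNPK had 2.56 and 4.12 kb after 2 h, 3.7 and 3.62 kb after 4 h and 2.5 and 5.91 kb in DMSO. HNRNPU had 1.87 and 5.06 kb after 2 h, 3.22 and 2.73 kb after 4 h and 4.34 and 5.61 kb in DMSO. The 4 h lists of HNRNPU were below its DMSO lists, and the other groups of these 2 genes overlap.

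**Figure D5:**
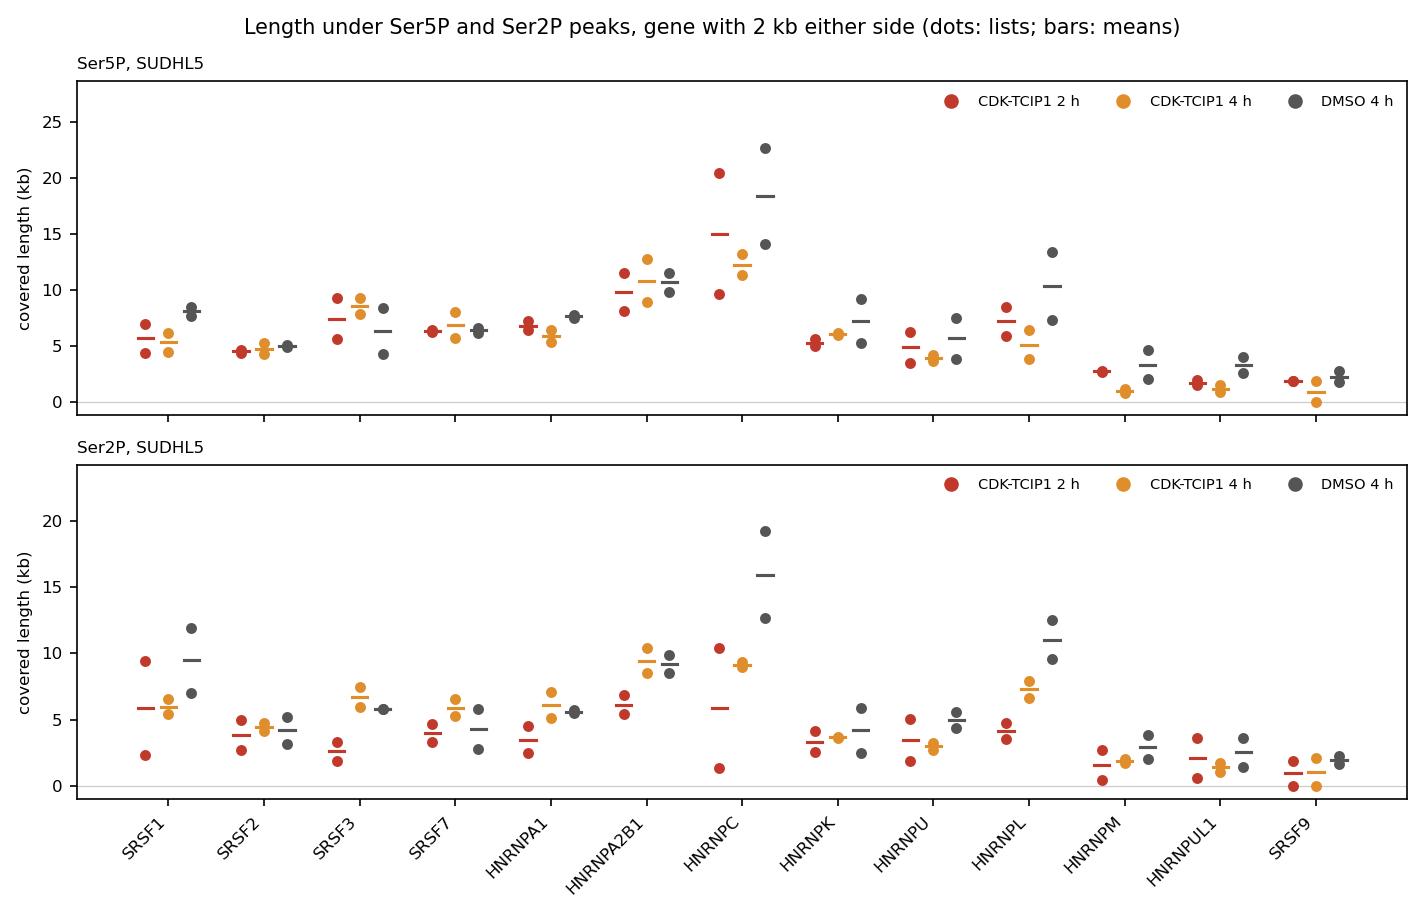
Length under Ser5P (top) and Ser2P (bottom) peaks in kb over each gene with 2 kb either side, in SUDHL5, for the 9 best-known members and 4 others; dots are lists, bars their means, red CDK-TCIP1 2 h, orange CDK-TCIP1 4 h and grey DMSO 4 h. HNRNPC shows the widest scatter (Ser2P 1.36 to 19.2 kb), and the Ser2P dots of HNRNPL lie below DMSO in all 4 treated lists.

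Pol II lists were short, with 138 to 4001 peaks, and held 7, 23 and 16 members at gene ends after 2 h, 2, 21 and 14 after 4 h and 11, 21 and 12 in DMSO. The shares of all genes were 5.1%, 16.6% and 10.6% after 2 h, 0.569%, 13.5% and 6.95% after 4 h, and 2.68%, 12.5% and 9.06% in DMSO. SRSF2 and SRSF7 were in all 9 lists, and SRSF3, HNRNPA2B1, HNRNPAB, HNRNPDL, HNRNPH1 and HNRNPK in all but the list of 138 peaks, counting peaks within 2 kb of the gene. SRSF7 had 1.11, 1.64 and 1.17 kb covered after 2 h, 0.378, 2.3 and 1.06 kb after 4 h and 0.458, 1.88 and 1.25 kb in DMSO. SRSF2 had 0.74, 1.11 and 1.52 kb after 2 h, 0.369, 1.4 and 0.88 kb after 4 h and 0.434, 1.58 and 1.36 kb in DMSO. The 3 groups overlap for both genes. SRSF1 had 0, 0.683 and 0.44 kb after 2 h, 0, 0.493 and 0.328 kb after 4 h and 0.461, 0.619 and 0.637 kb in DMSO. HNRNPK had 0.357, 2.19 and 1.47 kb after 2 h, 0, 1.67 and 1.36 kb after 4 h and 0.393, 1.46 and 1.26 kb in DMSO. SRSF3 had 1.55, 2.37 and 1.34 kb after 2 h, 0, 1.68 and 1.01 kb after 4 h and 0.989, 2.43 and 0.71 kb in DMSO. The zeros of all 3 genes at 4 h are those of the shortest list. HNRNPA2B1 had 0.704, 1.56 and 0.902 kb after 2 h, 0, 2.4 and 0.921 kb after 4 h and 0.574, 2.51 and 1.38 kb in DMSO, and the groups overlap. HNRNPU had a peak in 2 of 3 lists after 2 h and in 1 of 3 after 4 h and in DMSO, and HNRNPA1 in 1 of 3 after 2 h, 0 of 3 after 4 h and 1 of 3 in DMSO. HNRNPC was in 2 of 3 lists after 2 h, 1 of 3 after 4 h and 0 of 3 in DMSO. No member was gained or lost at 2 h, against 0.199% gained and 0.22% lost among all genes, or at 4 h, against 0% and 1.32%. No test was run on Pol II lengths, since the lists are short.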

How the data were processed

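The 33 peak lists of 43 labelled ChIP-seq samples were used, and the 10 inputs have no list. The submitters' processing notes name MACS2, Bowtie2 and Trim Galore, further deepTools, bedtools, Picard, SAMtools and FastQC, and the builds hg38 and dm6. Versions, MACS2 settings, control libraries and blacklists were not given in the sources used here. Per the labels' protocols the CDK9 samples also received chromatin of Drosophila, and no value scaled to it was used. The deposited fold enrichment of each peak is a ratio within its own list, and the deposited -log10 p and -log10 q come from the same call. Percentiles rank peaks by fold enrichment within a list, and filters and cuts of a list used -log10 q. The deposited -log10 p was not used. Lists hold no read totals, so depth is unknown. Of 286536 peaks, 25 on unplaced contigs were left out.

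Coordinates are 1-based on hg38, and genes, starts and sequences came from RefSeq tables of GRCh38.p14. The gene table has no strand, so a gene was occupied when a peak came within 1 kb of either end. Covered length was tested with limma 3.58.1 in R 4.3.3 (trend) on log2(bases + 100), with Benjamini-Hochberg adjustment over all genes tested and a threshold of 0.05. Ser5P and Ser2P were fitted over their 6 lists with 3 groups. The fit was also run on simulated normal values, without genes at 0 bases or lists of unequal length. That run therefore does not cover list length or entry through 1 group. In the CDK9, Ser5P and Ser2P sets, the correlations of same-numbered lists' deviations from their group means ran from -0.08 to 0.19. With 2 lists a group these values do not settle whether numbers pair lists, and the main fit used no pairing. Pol II was not checked in this way, and its list lengths had the same order by number in every group. Lists 1, 2 and 3 held 1214, 4001 and 2386 peaks after 2 h and 138, 3196 and 1572 after 4 h. In DMSO they held 710, 3231 and 2028. Pol II groups were not compared by number, and no label says what a number stands for.

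Named were all gained or lost members, the 3 largest rises and falls past the threshold, and SRSF1, SRSF2, SRSF3, SRSF7, HNRNPA1, HNRNPA2B1, HNRNPC, HNRNPK and HNRNPU in every set. Other members were named after their values were seen. The members and lists were chosen with earlier results of these data known. Alternatives were a stricter q (-log10 of at least 5), a 2.5 kb window, equal list lengths, another pseudocount (1000 bases), centred lists, a replicate block and leaving out each list. The promoter-start window, the fit on genes with a peak in every list and the interaction of line and treatment were added after seeing the data. Of the B-cell markers, 1 is not reported here.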

Additional observations from a re-analysis of the deposited data

Results flagged for a closer look

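The change in CDK9 covered length with CST2316S differed between the cell lines at 9 members, by limma's interaction of line and treatment over 8 lists. These are 9 of 28 tested, and 31.4% of all 3865 genes tested differed in that direction. With the median of each list subtracted 2 remained past the threshold (HNRNPD and HNRNPR) while HNRNPF turned to -0.97 (adjusted p = 0.0369), and with the replicate block 5 members passed, HNRNPD, HNRNPDL, HNRNPR, HNRNPH2 and HNRNPC. Each value is the log2 change in SUDHL5 minus that in KARPAS422. The differences were 4.43 for HNRNPD (adjusted p = 0.000531), 3.90 for HNRNPDL (0.00211), 3.73 for HNRNPR (0.00187) and 3.33 for HNRNPH2 (0.00211), and these 4 genes had no CST2316S peak in either DMSO list of SUDHL5, so that their size depends on the 100 bases added. Those DMSO values also show no spread, so the adjusted p of these 4 genes may be too small. The other differences were 1.93 for HNRNPA3 (0.0134), 1.71 for SRSF1 (0.0155), 1.67 for SRSF10 (0.0394), 1.65 for HNRNPK (0.0315) and 1.61 for HNRNPF (0.0134), which had a peak in every list of both lines. The DMSO lists held 1611 and 1264 peaks in SUDHL5 and 6689 and 7804 in KARPAS422, and the part of this gap in the differences was not tested.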

How the results depend on the processing

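Shares in parentheses are those of all genes that could be called, under the same setting. With only peaks at -log10 q of at least 5, the members gained were 3 with ab239364 (6.18%), 7 with CST2316S in SUDHL5 (5.35%), 2 in KARPAS422 (4.65%) and 0 for Ser5P at 2 h (6.07%). The members lost were then 2 for Ser5P at 4 h (1.6%), 1 for Ser2P at 2 h (7.14%) and 1 for Ser2P at 4 h (3.92%), and those whose covered length rose were 4 with ab239364 (38.7%) and 2 in KARPAS422 (22.3%). With every list of a set cut to the length of the shortest, 1 member was gained with CST2316S in SUDHL5 (0.642%), 0 in KARPAS422 (2.23%), 0 for Ser5P at 2 h (4.92%), 1 for Ser2P at 2 h (2.25%) and 1 at 4 h (5.09%). Lost members were then 1 with ab239364 (HNRNPH2; 22.7%), 4 with CST2316S in SUDHL5 (SRSF2, HNRNPA1, HNRNPA3 and HNRNPH3; 44.3%) and 1 in KARPAS422 (20.1%). For Ser5P at 2 h, where HNRNPH1 was lost, 0 members were lost with a 2.5 kb window (0.996%) and 0 with promoter-table starts (0.627%). The cause was not tested in any of these cases.

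Leaving out each list in turn gave 1 to 12 gained members with ab239364 (8.95% to 15.6%), 5 to 7 with CST2316S in SUDHL5 (6.83% to 9.07%), 1 to 4 in KARPAS422 (6.74% to 11.4%) and 1 to 2 for Ser5P at 2 h (6.82% to 11.1%). It gave 0 to 1 for Ser5P at 4 h (2.87% to 9.41%), Ser2P at 4 h (4.23% to 10%) and Pol II at 2 h (0.205% to 1.41%). Lost members were 0 to 1 with ab239364 (0.402% to 4.27%), for Ser2P at 2 h (6.24% to 44.2%) and at 4 h (4.95% to 13.3%), and 0 to 2 in KARPAS422 (5.69% to 15.4%) and for Ser5P at 4 h (2.24% to 11.4%). Members whose covered length rose were 0 to 18 with ab239364 (4.6% to 86.9%) and 0 to 17 with CST2316S in SUDHL5 (34.4% to 95.4%), and 0 to 10 fell for Ser2P at 2 h (0% to 29.6%). Where 1 list of a group remains, it is assumed to vary like the other group.

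With the median of each list subtracted, members that rose were 0 with ab239364 (0%) and 0 with CST2316S in SUDHL5 (16.4%), where 13 fell (31.2%), and 2 rose more in SUDHL5 than in KARPAS422 (9.96%). In SUDHL5 with CST2316S, 12 rises turned to negative log2 changes: SRSF1 -1.64, SRSF3 -0.58, SRSF10 -3.08, HNRNPA1 -3.49, HNRNPA2B1 -3.35, HNRNPA3 -2.22, HNRNPDL -0.97, HNRNPF -2.46, HNRNPH2 -1.23, HNRNPH3 -3.56, HNRNPK -2.80 and HNRNPR -0.71. Among genes with a peak in every list, 8 members rose with CST2316S in SUDHL5 (80.3%). The replicate block gave 2 rises with ab239364 (44.2%), 12 with CST2316S in SUDHL5 (88.5%) and 5 for the difference between lines (18.8%). It called no member in KARPAS422, for Ser5P or for Ser2P. Read depth is unknown, and list length limits what a missing peak can show.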
